A study of Mus musculus with 3 samples.

Results

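The genes described here encode histone lysine methyltransferases and demethylases, with the protein arginine methyltransferases that share their naming scheme. They were chosen by name and not by level. The rule took the protein-coding genes of GENCODE M21 whose symbol begins with Kdm, Kmt, Ezh, Nsd or Prmt and a digit, or with Setd. Suv39h1, Suv39h2, Dot1l, Eed, Suz12, Ehmt1 and Ehmt2 were added, and Kdm5d was left out. It found 55 genes of 55536 annotated genes, 22028 of them protein-coding. The name covers them loosely, because the 8 Prmt proteins act on arginine, Eed and Suz12 are non-enzymatic subunits, and several of the remaining proteins act on other substrates or lack known activity.

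The RNA was the polyadenylated fraction of primary regulatory T cells, activated, from a male mouse, 9 weeks of age. The labels give 1 biosample of 1 donor and 3 libraries, which they number as technical replicates, and name no strain, activating agent or untreated control. There was therefore no contrast between conditions, and every SD below is a technical spread over 3 libraries that says nothing about variation between mice. Levels are in TPM, a share of the library's transcripts that divides by transcript length and so allows genes to be compared. A second, smaller deposited gene table of whole counts, made with an older annotation, serves as a cross-check. The libraries held 31445344, 32612609 and 37259281 expected counts. The T-cell and Treg markers fitted the label: all 6 T-cell markers and all 6 Treg markers had at least 1 TPM in every library, with Cd4 at 394 ± 15.9 and Foxp3 at 135 ± 2.65 TPM. All 4 activation markers did too, from Cd44 at 64.25 ± 1.58 to Icos at 625 ± 19.6 TPM, with no untreated control to compare. Summed B-cell markers gave 43.7 to 56.2 TPM and summed macrophage markers 39.1 to 44.9 TPM. Of the B-cell markers 5 of 6 had at least 1 TPM in every library, from Cd79b, the highest at 29.3 TPM on average, to Pax5, the lowest and below threshold at 0.0867 TPM. Of the macrophage markers 3 of 6 did, with Lyz2 highest at 24.9 TPM. The 4 CD8 and NK-cell markers summed to 3.99 to 4.74 TPM, with Gzma and Cd8a at 2.53 and 1.64 TPM on average and Klra8, an NK-cell receptor, at 0 in every library. The 5 granulocyte markers summed to 20.1, 0.66 and 2.08 TPM in libraries 1, 2 and 3, so library 1 stood apart there, and the 4 red-cell globin genes to 885, 632 and 709 TPM. The part of such RNA in the levels below was not tested. In bulk RNA, fewer cells of a type and less RNA per cell cannot be told apart.

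Histone methylation is written by enzymes that transfer a methyl group from S-adenosylmethionine and is removed by oxidative enzymes. Most lysine methyltransferases use a SET domain, Dot1l has a fold of its own, the Jumonji C (JmjC) demethylases need iron and 2-oxoglutarate, and Kdm1a and Kdm1b are flavin-dependent amine oxidases. Methylation of lysine 4 and lysine 36 of histone H3 accompanies transcribed genes, whereas methylation of lysine 9 and lysine 27 accompanies silenced ones. In regulatory T cells, Ezh2, the catalytic subunit of Polycomb repressive complex PRC2, is known to help keep a repressive program after activation.

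Short coding stretches that mark the catalytic domains are shown first, because the transcript results below turn on whether an RNA reaches them. They were read from the GENCODE M21 transcript sequences on mm10. Capitals mark the codons of the searched motif, and 6 flanking bases on each side are in lower case. In the SET domain the motif was an asparagine and a histidine, any 3 residues, then a proline and an asparagine. Members of the lysine 4 and lysine 36 families, PRC2 and the G9a and GLP pair were compared.
Kmt2a: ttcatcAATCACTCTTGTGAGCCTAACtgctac
Kmt2c: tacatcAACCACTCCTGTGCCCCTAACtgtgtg
Kmt2d: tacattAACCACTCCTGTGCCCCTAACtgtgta
Nsd1: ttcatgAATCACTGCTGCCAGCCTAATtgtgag
Nsd2: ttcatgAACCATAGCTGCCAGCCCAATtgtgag
Nsd3: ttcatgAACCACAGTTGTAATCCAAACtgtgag
Ezh1: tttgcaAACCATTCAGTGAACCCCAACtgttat
Ezh2: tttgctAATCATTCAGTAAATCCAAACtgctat
Ehmt1: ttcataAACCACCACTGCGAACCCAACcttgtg
Ehmt2: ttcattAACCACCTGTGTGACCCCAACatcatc
The capitals lie at chr9:44808076-44808096 (minus strand) for Kmt2a, chr5:25275709-25275729 (minus strand) for Kmt2c, chr15:98834797-98834817 (minus strand) for Kmt2d, chr13:55302887-55302907 (plus strand) for Nsd1, chr5:33891554-33891574 (plus strand) for Nsd2 and chr8:25709111-25709131 (plus strand) for Nsd3. The remaining stretches lie at chr11:101193739-101193759 (minus strand) for Ezh1, chr6:47531998-47532018 (minus strand) for Ezh2, chr2:24792379-24792399 (minus strand) for Ehmt1 and chr17:34912691-34912711 (plus strand) for Ehmt2. All are exonic and coding. Kmt2c and Kmt2d shared all 21 capital bases, Ezh1 and Ezh2 shared 17, Ehmt1 and Ehmt2 17, Nsd1 and Nsd2 17, and Nsd1 and Nsd3 13. In the longest coding transcript the motif began at codon 3903 of 3966 in Kmt2a and at codon 4841 of 4904 in Kmt2c, close to the end of the coding sequence. It began at codon 1233 of 1446 in Nsd3 and at codon 688 of 746 in Ezh2.

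For the JmjC demethylases the motif was the iron-binding stretch, spelled separately for each subfamily from its known residues, and for the arginine methyltransferases a short loop that carries a catalytic glutamate. Shown are the Kdm5 and Kdm6 genes, whose family members are compared below, and Kdm2a and Prmt1, which have less than 50% of TPM on motif-holding transcripts.
Kdm5a: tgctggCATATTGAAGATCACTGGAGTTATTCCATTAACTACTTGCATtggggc
Kdm5b: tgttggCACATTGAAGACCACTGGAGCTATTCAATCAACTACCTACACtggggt
Kdm5c: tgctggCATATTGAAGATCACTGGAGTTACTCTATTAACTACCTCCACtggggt
Kdm6a: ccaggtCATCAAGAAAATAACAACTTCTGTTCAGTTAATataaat
Kdm6b: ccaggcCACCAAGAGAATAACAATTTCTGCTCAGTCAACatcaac
Kdm2a: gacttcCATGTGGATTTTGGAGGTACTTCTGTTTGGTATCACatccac
Prmt1: atcatcAGCGAGTGGATGGGTtactgc
These capitals lie at chr6:120390792-120390833 (plus strand), chr1:134604580-134604621 (plus strand), chrX:152253562-152253603 (plus strand), chrX:18269150-18269182 (plus strand), chr11:69401343-69401375 (minus strand), chr19:4351755-4351790 (minus strand) and chr7:44979443-44979457 (minus strand), in that order. Kdm5a shared 37 of 42 capital bases with Kdm5c and 34 with Kdm5b, and Kdm6a shared 27 of 33 with Kdm6b. A motif was matched exactly 1 time in 42 members, namely 21 of the 27 SET-type members searched, 15 of 15 JmjC members and 6 of 8 Prmt genes. The JmjC count follows from spelling that motif by subfamily, so it does not measure how well the search finds such genes. Across the longest coding transcript of 21866 protein-coding genes, the SET, JmjC and Prmt motifs were found in 0.206%, 0.0823% and 0.174%. Kmt2e, Setd3, Setd4, Setd5, Setd6, Kmt5a, Prmt7 and Prmt9 held no match, which says only that these residues are not spelled so there. Dot1l, Eed, Suz12, Kdm1a and Kdm1b were not searched.

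Of the 55 genes, 53 had at least 1 TPM in every library (96.4%), beside 47.3% of all protein-coding genes. The median over the 53 was 33.9 TPM, beside 29.2 TPM over all protein-coding genes that met the same threshold, and 30 of the members lay above that value. At least 10 TPM was reached by 47 members and at least 50 TPM by 15. The range was wide, from Kmt2e at 176 ± 3.23 TPM to Suv39h2 at 1.51 ± 0.162 TPM. The members below the threshold were Kdm4d and Prmt8.

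**Figure D1:**
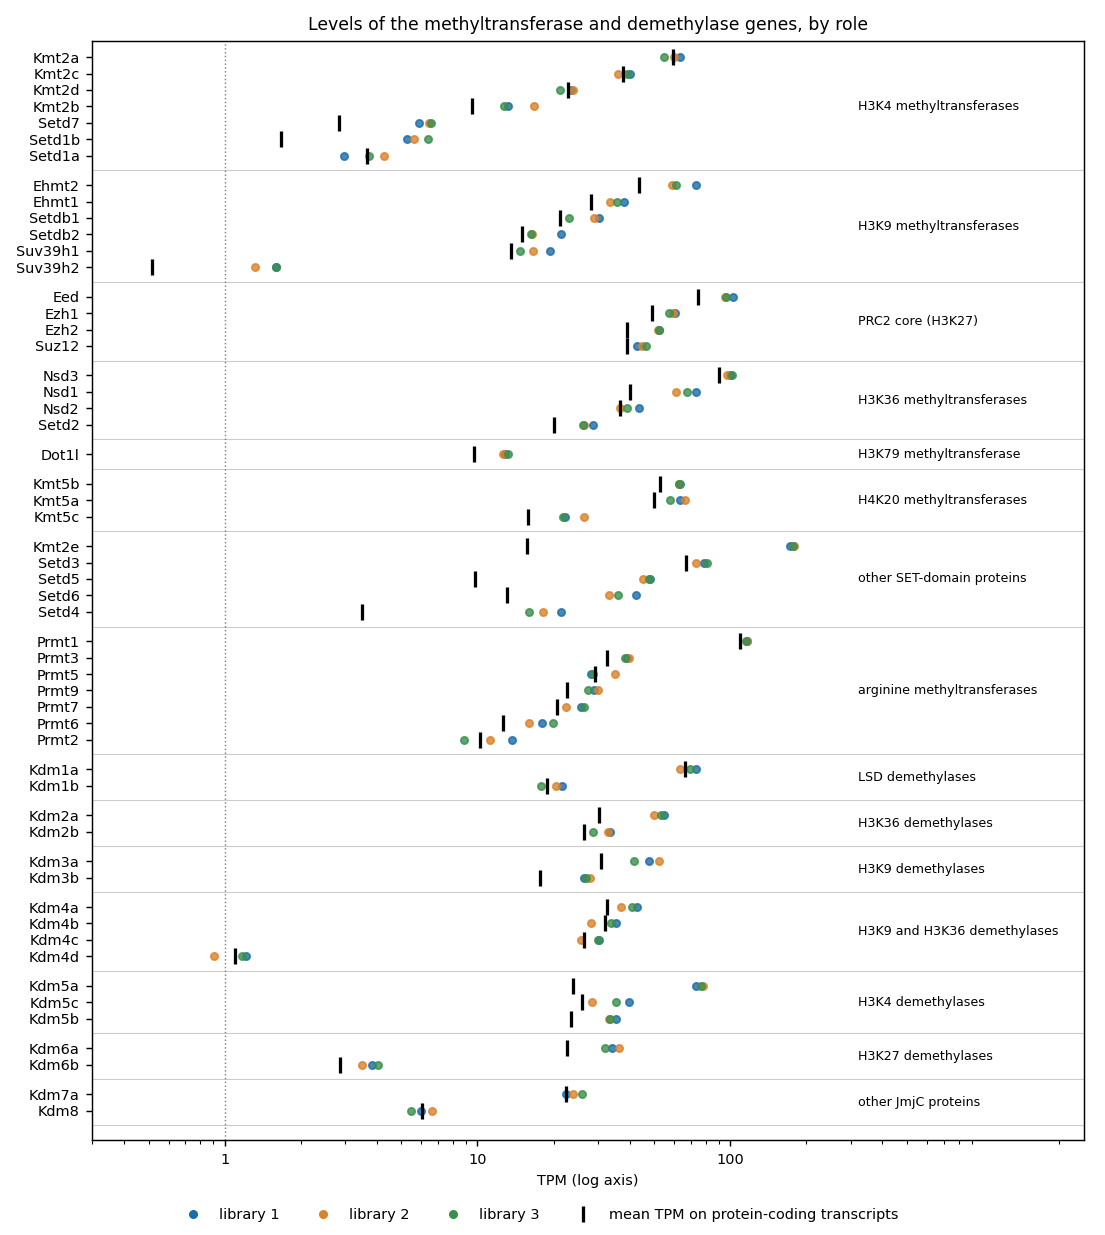
Level of each gene in each of the 3 libraries (points, TPM, log axis), grouped by the role of its product, with the mean TPM on protein-coding transcripts as a black bar; Prmt8, at 0 in every library, is not drawn, and the dotted line marks 1 TPM. Kmt2e lies highest at 173 to 179 TPM while its black bar lies at 15.7, and Suv39h2 and Kdm4d lie near 1 TPM.

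The methyltransferases of histone H3 lysine 4 had a median of 14.2 TPM and spread from 3.66 to 59.3. Kmt2a (MLL1), which acts with the menin protein at developmental genes, had 63.5, 59.7 and 54.8 TPM in libraries 1, 2 and 3 (59.3 ± 4.40, SD, n = 3). Its paralogue Kmt2b had 13.2, 16.7 and 12.7 TPM (14.2 ± 2.20). Every value of Kmt2a lay above every value of Kmt2b, and the mean ratio was 4.18-fold. On coding transcripts that hold the SET motif the genes lay close, with Kmt2a at 9.97 ± 1.18 TPM and Kmt2b at 9.55 ± 0.0473 TPM. In library 3 Kmt2a was the lower on that measure, at 8.87 TPM against 9.53 TPM. Kmt2c and Kmt2d, which methylate enhancers, had 40.2, 35.8 and 39.02 TPM (38.4 ± 2.28) and 23.5, 23.8 and 21.1 TPM (22.8 ± 1.47). The groups did not overlap per length, with a log2 ratio of Kmt2d to Kmt2c of -0.75 ± 0.15, but without length correction Kmt2d had more reads (0.95 ± 0.13 on CPM, the expected counts scaled to library size). On motif-holding transcripts Kmt2c had 11.57 ± 0.479 TPM, below Kmt2d at 21.45 ± 0.953 TPM. Most of the remaining TPM of Kmt2a and Kmt2c lay on coding models with unfinished ends in the annotation. Kmt2d ranked first of all members by expected count and at rank 39 by TPM.

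Setd1a and Setd1b, the catalytic subunits of the complexes that deposit most lysine 4 trimethylation, were low. Setd1a had 2.96, 4.28 and 3.73 TPM (3.66 ± 0.663) and Setd1b had 5.28, 5.59 and 6.40 TPM (5.76 ± 0.578). Their log2 ratio of -0.65 ± 0.24 turned to 1.08 ± 0.21 when only protein-coding transcripts were counted. A retained-intron transcript carried most Setd1b TPM, and coding models with unfinished ends carried 62.9 ± 2.61% of Setd1a TPM. On motif-holding transcripts Setd1a was the lower in every library, with 1.35 ± 0.157 TPM against 1.67 ± 0.140 TPM for Setd1b. Setd7, a monomethyltransferase that also acts on non-histone proteins, had 6.29 ± 0.350 TPM. The shared COMPASS subunits and related partners were all above threshold (13 of 13, median 46.1 TPM), from Ncoa6 at 19.4 ± 0.329 to Psip1 at 136 ± 2.62 TPM. Wdr5, Ash2l, Rbbp5 and Dpy30, the core that activates these enzymes, had 25.4 ± 1.10, 55.7 ± 5.64, 46.1 ± 2.79 and 86.3 ± 4.80 TPM. Each of these 4 lay above Setd1a and Setd1b in every library.

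The lysine 4 demethylases ranged from 19.98 to 75.9 TPM. Kdm5a, a JmjC enzyme that removes trimethyl and dimethyl marks, had 73.2, 78.04 and 76.3 TPM (75.9 ± 2.43). Kdm5b had 35.3, 32.99 and 33.5 TPM (33.9 ± 1.23) and the X-linked Kdm5c 39.6, 28.5 and 35.4 TPM (34.5 ± 5.62). Kdm5a lay above both in every library, with a log2 ratio of Kdm5a to Kdm5b of 1.16 ± 0.098 and of Kdm5c to Kdm5a of -1.15 ± 0.29. These ratios were 0.02 ± 0.14 and 0.08 ± 0.39 on protein-coding transcripts alone, where Kdm5a had 23.9 ± 1.53, Kdm5b 23.5 ± 0.757 and Kdm5c 25.8 ± 6.24 TPM. On protein-coding transcripts that hold the JmjC motif, Kdm5a was lowest in every library. It had 15.3 ± 0.941 TPM there, beside 23.5 ± 0.757 for Kdm5b and 22.55 ± 3.48 for Kdm5c. Kdm5a-206 and Kdm5a-204, annotated for nonsense-mediated decay, also hold the motif and are not counted in that value. Kdm1a (LSD1), which removes monomethyl and dimethyl marks within the CoREST complex, had 73.1, 63.4 and 69.4 TPM (68.6 ± 4.91) and Kdm1b 21.6, 20.5 and 17.9 TPM (19.98 ± 1.90). Their log2 ratio was 1.78 ± 0.16. Among CoREST partners 8 of 9 met the threshold (median 41.2 TPM), with Hdac1 at 244 ± 10.8, Rcor1 at 33.1 ± 0.706 and Rcor2 at 0.863 ± 0.314 TPM.

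The lysine 9 methyltransferases had a median of 22.7 TPM. Ehmt2 (G9a) and Ehmt1 (GLP), which form a dimer that dimethylates lysine 9, had 73.1, 58.7 and 60.99 TPM (64.2 ± 7.73) and 37.9, 33.3 and 35.6 TPM (35.6 ± 2.27). Ehmt2 lay above Ehmt1 in each library, with a log2 ratio of 0.85 ± 0.09, and was highest in library 1. Setdb1, the enzyme recruited by Trim28 to endogenous retroviruses, had 30.3, 28.9 and 22.9 TPM (27.4 ± 3.91) and Setdb2 21.4, 16.4 and 16.3 TPM (18.03 ± 2.91). Their log2 ratio was 0.60 ± 0.18, but 0.50 ± 0.44 on protein-coding transcripts, which is within 2 SD. Suv39h1, which trimethylates pericentromeric heterochromatin, had 19.3, 16.5 and 14.7 TPM (16.8 ± 2.35), and its paralogue Suv39h2 had 1.60, 1.32 and 1.60 TPM (1.51 ± 0.162). Suv39h1 was 10.5-fold higher by mean TPM, with a log2 ratio of 3.40 ± 0.24. All 9 partners of this pathway met the threshold (median 34.4 TPM), among them Trim28 at 86.3 ± 9.23, Atf7ip at 92.4 ± 13.8 and the HP1 genes Cbx3 at 92.5 ± 3.998, Cbx1 at 32.8 ± 0.957 and Cbx5 at 11.8 ± 2.15 TPM.

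The Kdm3 demethylases of lysine 9 had a median of 37.1 TPM. Kdm3a, which acts on monomethyl and dimethyl marks, had 47.9, 52.1 and 41.5 TPM (47.2 ± 5.37) and Kdm3b 26.3, 27.9 and 26.99 TPM (27.1 ± 0.814), a log2 ratio of Kdm3b to Kdm3a of -0.79 ± 0.15. Kdm4a, Kdm4b and Kdm4c, which remove trimethylation from lysine 9 and lysine 36, lay between 25.6 and 42.6 TPM in every library. Kdm4a had 42.6, 36.97 and 40.8 TPM (40.1 ± 2.88), Kdm4b 35.4, 28.1 and 33.8 (32.4 ± 3.82) and Kdm4c 30.2, 25.6 and 29.96 (28.6 ± 2.59). The ratio of Kdm4a to Kdm4b was 0.31 ± 0.071 on the log2 scale and 0.02 ± 0.14 on protein-coding transcripts. Kdm4a exceeded Kdm4c by 0.49 ± 0.041. Kdm4d had 1.21, 0.910 and 1.17 TPM (1.10 ± 0.163), below 1 TPM in library 2 only.

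The 4 PRC2 core genes ranged from 44.7 to 98.2 TPM, with a median of 55.6. Eed, the subunit that reads trimethylated lysine 27, had 103, 95.1 and 96.5 TPM (98.2 ± 4.14), and Suz12, the scaffold, had 42.9, 44.7 and 46.5 TPM (44.7 ± 1.77). The log2 ratio of Suz12 to Eed was -1.13 ± 0.11 per length and 0.24 ± 0.076 on CPM, so its direction rested on the length correction. The catalytic paralogues lay close. Ezh1 had 60.5, 59.3 and 57.3 TPM (59.05 ± 1.63) and Ezh2 had 52.1, 51.8 and 52.5 TPM (52.1 ± 0.352). Ezh1 was higher in every library, by a small margin (log2 ratio of Ezh2 to Ezh1 -0.18 ± 0.047). The direction was the same on CPM (-1.04 ± 0.068), on protein-coding transcripts (-0.33 ± 0.13) and in the smaller table (-0.27 ± 0.092). Of 8 accessory PRC2 genes all met the threshold (median 62.5 TPM). The histone-binding subunits Rbbp4 and Rbbp7 had 286 ± 9.95 and 209 ± 12.7 TPM, Aebp2 97.6 ± 3.998, Jarid2 57.4 ± 5.004 and Mtf2 59.8 ± 6.30. Phf19, a Polycomb-like accessory subunit, had only 1.997 ± 0.221 TPM beside its relative Phf1 at 65.3 ± 5.40.

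The opposing lysine 27 demethylases were unequal. Kdm6a (UTX), X-linked and part of the Kmt2c and Kmt2d complexes, had 34.1, 36.1 and 31.9 TPM (34.04 ± 2.13). Kdm6b (JMJD3), an inducible enzyme, had 3.83, 3.49 and 4.04 TPM (3.79 ± 0.278). The groups did not overlap, with a log2 ratio of 3.13 ± 0.19. Ezh2 lay above Kdm6b by 3.75 ± 0.095 on the log2 scale and above Kdm6a by 0.61 ± 0.10. The last of these changed sign without length correction (-0.22 ± 0.077) and in the smaller table (-0.23 ± 0.059).

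The lysine 36 methyltransferases had a median of 53.5 TPM. Nsd3 led with 99.7, 97.1 and 101 TPM (99.4 ± 2.14), followed by Nsd1 with 73.4, 61.02 and 67.4 TPM (67.3 ± 6.18) and Nsd2 with 43.6, 36.6 and 38.99 TPM (39.8 ± 3.56). These 3 enzymes dimethylate lysine 36. Setd2, which adds the trimethyl mark during elongation, had 28.7, 26.4 and 26.2 TPM (27.1 ± 1.39). No library value of Nsd1 overlapped those of Nsd2, and the log2 ratio was 0.76 ± 0.029, and 0.14 ± 0.13, within 2 SD, on protein-coding transcripts. The ratio of Nsd3 to Nsd2 was 1.32 ± 0.12. The log2 ratio of Setd2 to Nsd1 was -1.31 ± 0.086 in TPM and -0.20 ± 0.10, within 2 SD, in the smaller table. The demethylases Kdm2a and Kdm2b, CXXC-domain proteins that bind unmethylated CpG islands, had 54.9, 49.96 and 53.2 TPM (52.7 ± 2.52) and 33.4, 32.8 and 28.6 TPM (31.6 ± 2.60), a log2 ratio of 0.74 ± 0.14. On protein-coding transcripts that ratio was 0.21 ± 0.059. On those that hold the JmjC motif the genes lay close and Kdm2a was the lower in every library. It had 23.9, 22.4 and 21.4 TPM there, against 26.1, 22.7 and 21.6 TPM for Kdm2b.

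Dot1l, the lysine 79 methyltransferase, had 12.8, 12.6 and 13.2 TPM (12.9 ± 0.301). Of the histone H4 lysine 20 enzymes, Kmt5a (the monomethyltransferase) had 62.4 ± 4.11 TPM. Kmt5b and Kmt5c, which add the further methyl groups, had 63.1, 62.9 and 62.5 TPM (62.8 ± 0.351) and 22.2, 26.3 and 21.8 TPM (23.4 ± 2.51). Their log2 ratio was 1.42 ± 0.15. Kdm7a, a demethylase of lysine 9 and lysine 27, had 22.5, 23.9 and 25.9 TPM (24.1 ± 1.73), and Kdm8, a JmjC hydroxylase, 5.97, 6.63 and 5.46 TPM (6.02 ± 0.587).

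Other SET-domain proteins included the member with the most TPM. Kmt2e (MLL5), whose PHD finger binds methylated lysine 4 and whose SET domain has no established methyltransferase activity, had 173, 179 and 176 TPM (176 ± 3.23). Setd3, the histidine methyltransferase of actin, had 77.8 ± 4.09 TPM. Setd5, a chromatin protein of disputed catalytic activity, had 48.4, 45.04 and 47.9 TPM (47.1 ± 1.79), and Setd6, which methylates the NF-kappaB subunit RelA, 42.5, 33.01 and 36.01 TPM (37.2 ± 4.86). Setd4 had 21.4, 18.1 and 15.99 TPM (18.5 ± 2.71).

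Prmt1, the main source of asymmetric dimethylarginine, led the arginine methyltransferases with 117, 117 and 116 TPM (116 ± 0.560). Prmt5, the main source of symmetric dimethylarginine, had 28.2, 34.9 and 28.6 TPM (30.6 ± 3.78), so that the log2 ratio was 1.93 ± 0.17. On CPM this narrowed to 0.39 ± 0.15. Prmt2 had 13.7, 11.2 and 8.81 TPM (11.2 ± 2.46), with a log2 ratio of Prmt1 to Prmt2 of 3.38 ± 0.31. Prmt3, which acts on a ribosomal protein, had 39 ± 0.624 TPM, Prmt9, which acts on a splicing factor, 28.8 ± 1.37, Prmt7, a monomethyltransferase, 24.8 ± 2.15, and Prmt6, which acts on arginine 2 of histone H3, 17.9 ± 1.97. Prmt8, a membrane-anchored enzyme known from brain, had 0 counts in every library, and 3 counts in a library would correspond to 0.0533 TPM on average. Carm1, an arginine methyltransferase outside the name rule, had 46.5 ± 0.906 TPM. It belongs to a list of 19 related enzymes with other names, of which 16 met the threshold (median 19.3 TPM). On that list Riox2 reached 69.5 ± 1.93, Jmjd1c 50.3 ± 2.52, Phf8 45.1 ± 2.90 and Ash1l 21.1 ± 0.732 TPM, and Smyd1, Mecom and Hr lay below 0.1 TPM on average.

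Across the 24 pairs of related or opposing genes set side by side above, all 24 log2 TPM ratios had 1 sign in the 3 libraries and a mean beyond 2 SD. With 3 libraries an exact sign-flip test cannot go below p = 0.25, so no test was made. The spread is technical and the pairs were chosen with earlier results of these data known. The count of 24 therefore shows only that each ratio repeated over libraries of 1 biosample. No share over other gene pairs was set beside it. On protein-coding transcripts 5 pairs lay within 2 SD, among them Kdm5c/Kdm5a (0.08 ± 0.39), and Setd1a/Setd1b turned direction beyond 2 SD. Without length correction 3 pairs turned direction. In the smaller table Setd2/Nsd1 and Suz12/Eed (0.04 ± 0.089) lay within 2 SD, and Kmt2d/Kmt2c (0.77 ± 0.14) and Ezh2/Kdm6a turned direction. Only 3 pairs consisted of genes with no split reads, because 35 of the 55 members had expected counts that were not whole numbers, within 0.01, in at least 1 library, as happens where reads are shared between genes. Setd1a to Setd1b was the pair nearest the limit and was within 2 SD without library 3 (-0.60 ± 0.309).

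**Figure D2:**
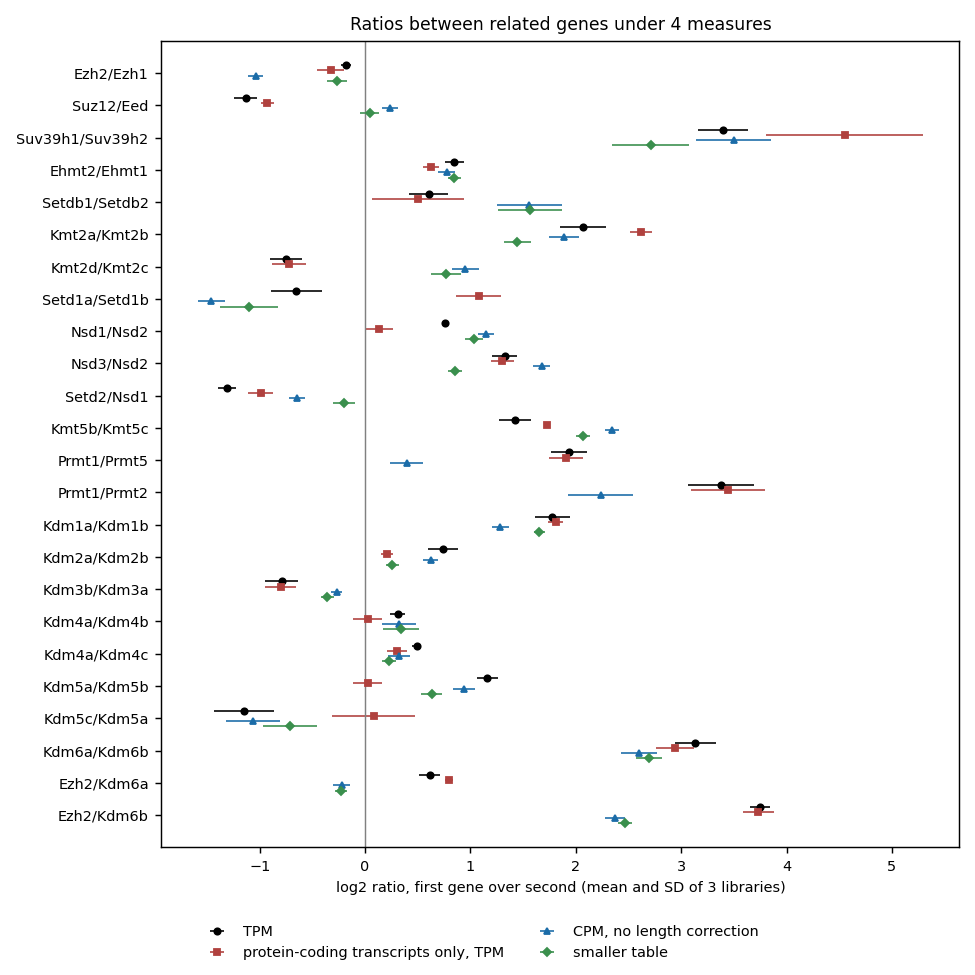
Log2 ratio of the first gene over the second for 24 pairs (mean and SD of 3 libraries) in TPM, in TPM on protein-coding transcripts, in CPM of expected counts without length correction and in the smaller table; the smaller table has no value for the pairs with Prmt1. Suz12/Eed, Kmt2d/Kmt2c and Ezh2/Kdm6a cross 0 without length correction, and Setd1a/Setd1b and Kdm5c/Kdm5a cross it on protein-coding transcripts.

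The TPM of several members came mostly from transcripts that the annotation does not type as protein-coding. The transcript with the most TPM was of another type (nonsense-mediated decay, retained intron, or a processed transcript with no annotated reading frame) in 8 of 53 members (15.1%), beside 11.9% of detected protein-coding genes. By expected counts, which weigh long transcripts more, it was so in 3 members, beside 7.57%. The share of TPM on protein-coding transcripts had a median of 78.96% in the members and 88.1% in detected protein-coding genes. Reads of 50 bases assign poorly between overlapping transcripts, so these shares are model estimates.

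Kmt2e (ENSMUSG00000029004.15, chr5:23434441-23504235, plus strand) had the largest such share. Its transcript Kmt2e-207 (2061 bases, annotated for nonsense-mediated decay) took 88.3%, 87.9% and 89.2% of the gene's TPM in libraries 1, 2 and 3, and 76.9 ± 0.451% of its expected counts. The full-length coding transcript Kmt2e-202 took 6.43 ± 0.0769% of TPM and 20.2 ± 0.207% of expected counts. Protein-coding transcripts of Kmt2e summed to 15.7 ± 0.872 TPM, which moved the gene from rank 1 of the members to rank 38. On the same measure Prmt1 was first, with 109.6 ± 1.23 TPM, and Nsd3 second, with 90.1 ± 2.31.

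In Kdm5a the decay transcript Kdm5a-206 held 45.8 ± 1.83% of TPM, ahead of the full-length Kdm5a-201 with 20.2 ± 0.829%. By expected counts the order was the opposite, with 38.3 ± 1.70% against 50.8 ± 0.714%. Retained-intron transcripts led in Setd1b (Setd1b-202, 61.5 ± 2.77%), Nsd1 (Nsd1-204, 27.7 ± 0.355%) and Setd4 (Setd4-217, 19.4 ± 6.74%). Processed transcripts led in Setd6 (Setd6-206, 36.1 ± 2.85%) and Setd5 (Setd5-212, 26.6 ± 2.91%). In Suv39h2 the decay transcript Suv39h2-204 led with 81.9%, 65.9% and 49.4% in the 3 libraries, a wide spread for a gene with 61.9 to 104.6 expected counts. Kmt2e, Suv39h2 and Setd4 were the 3 led by such a transcript also by expected counts.

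Transcripts typed as protein-coding can also stop short of the catalytic domain, and the stretches printed above allow this to be counted. Transcripts annotated for nonsense-mediated decay were left out of the motif-holding class, also where they hold the motif, as in Kdm5a and Prmt6. Among the 40 detected members with a single motif match, the median share of TPM on coding transcripts that held the motif was 68.1%, and 26 members had at least 50% there. By expected counts the median was 85.4% and 37 members had at least 50%, so the count depends on the measure. Every library left out in turn gave 26 members by TPM. The members with at least 90% by TPM were Kdm8, Prmt5, Kmt2d, Kdm7a, Kdm4c and Prmt2.

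**Figure D3:**
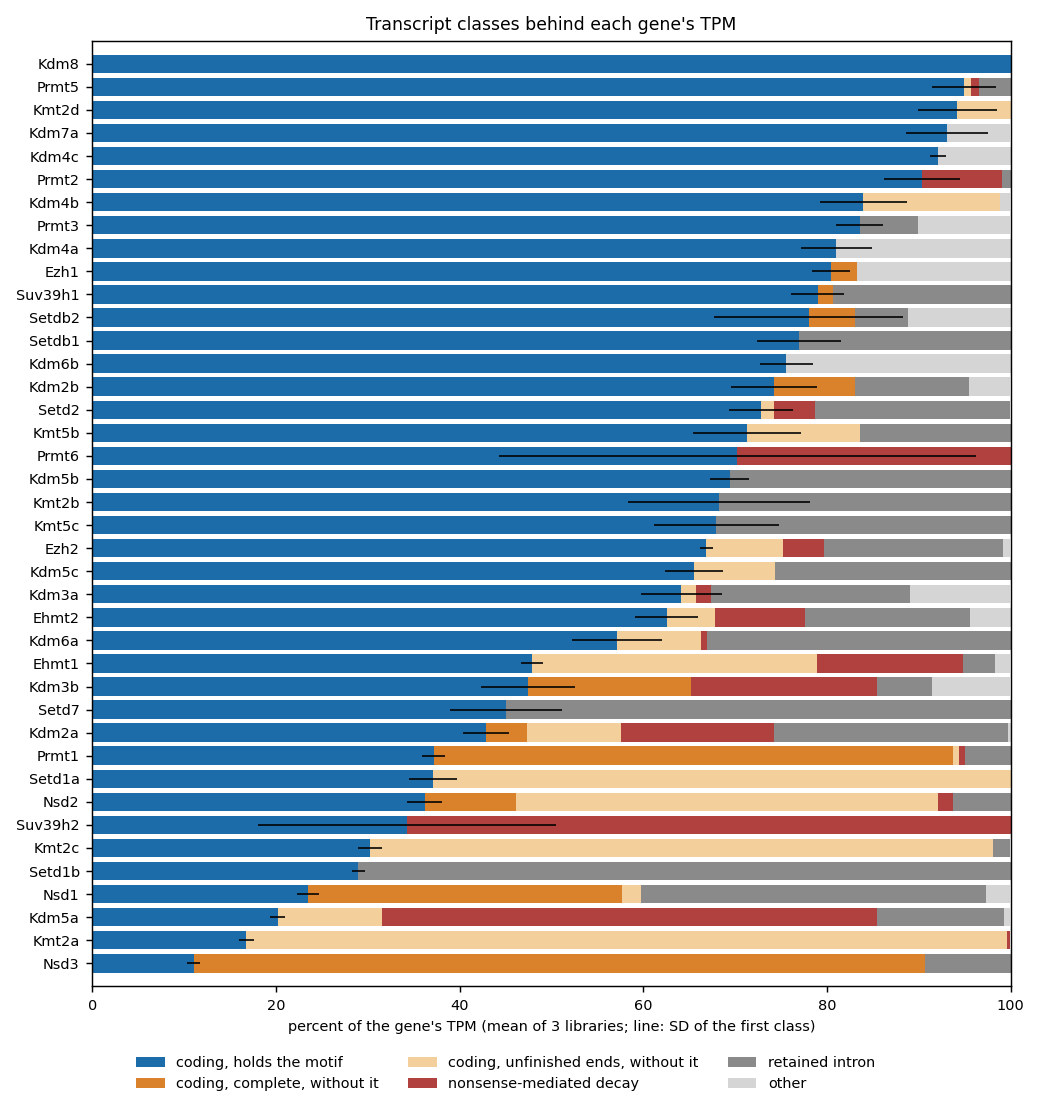
Share of each gene's TPM by transcript class for the 40 detected members with 1 motif match (mean of 3 libraries; black line, SD of the motif-holding share), ordered by that share. Kdm8 lies at 100% and Nsd3 at 11.0%, with most Nsd3 TPM on complete coding transcripts that lack the motif. Decay transcripts form a class of their own, also where they hold the motif.

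Nsd3 (ENSMUSG00000054823.16, chr8:25601601-25719667, plus strand), whose expected counts were whole numbers within 0.01 in every library, had the lowest share, 11.01 ± 0.736% of TPM on motif-holding transcripts, with 10.5%, 11.9% and 10.7% in the 3 libraries. Complete coding transcripts without the motif held 79.7 ± 2.06% of its TPM and 69.3 ± 2.07% of its expected counts, against 25.5 ± 1.99% for those that hold it. The leading one was Nsd3-203, whose coding sequence of 1863 bases compares with 4338 bases in the full-length Nsd3-201 and Nsd3-206. It took 43.9 ± 4.74% of TPM. The short form of Nsd3, which keeps the PWWP domain and lacks the SET domain, is a known product of the gene. Nsd3 transcripts with the motif came to 10.9 ± 0.527 TPM, beside 15.8 ± 0.939 TPM for Nsd1 and 14.4 ± 1.28 TPM for Nsd2, so Nsd3 led its family in total TPM and was lowest of the 3 on this measure in every library.

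Prmt1 and Nsd1 were the other members in which complete coding transcripts without the motif held more TPM than those with it. In Prmt1 (ENSMUSG00000109324.2, chr7:44975989-44986568, minus strand) the values were 56.5 ± 2.48% without and 37.2 ± 1.23% with it. Prmt1-214 and Prmt1-205, with coding sequences of 624 and 762 bases, took 28.3 ± 1.42% and 28.2 ± 1.18% of TPM, and Prmt1-201, with 954 bases and the motif, 33.7 ± 1.96%. The order held by expected counts, at 50.7 ± 1.91% without and 44.2 ± 1.21% with it. In Nsd1 the values were 34.2 ± 3.06% without and 23.5 ± 1.24% with it by TPM, but 7.94 ± 0.822% and 74.1 ± 1.54% by expected counts. The Nsd1 models without it, Nsd1-205 and Nsd1-206, have coding sequences of 474 bases, and their separate shares were uneven between libraries (Nsd1-205 had 15.5%, 3.25% and 5.51%). Kdm3b was the fourth member above 10% in this class, at 17.8 ± 3.20%.

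In Kmt2a, Kmt2c, Setd1a, Nsd2 and Ehmt1, most of the remaining TPM lay on coding models with unfinished ends in the annotation. For such models a missing motif says only that the model stops before it. Kmt2a had 16.8 ± 0.788% of TPM on motif-holding transcripts and 82.9 ± 0.939% on unfinished models. The same 2 shares were 30.2 ± 1.30% and 67.9 ± 2.02% in Kmt2c, and 37.1 ± 2.61% and 62.9 ± 2.61% in Setd1a. They were 36.2 ± 1.88% and 46 ± 6.53% in Nsd2, and 47.9 ± 1.21% and 31.05 ± 2.76% in Ehmt1. By expected counts the motif-holding share was 57.7 ± 1.34% in Kmt2a, 60.6 ± 2.39% in Kmt2c and 85.6 ± 0.716% in Setd1a. It was 64.3 ± 5.77% in Nsd2 and 78.6 ± 1.38% in Ehmt1. In Setd1b (28.98 ± 0.707%) and Setd7 (45.1 ± 6.11%) the remaining TPM lay on retained-intron transcripts, and in Suv39h2 (34.3 ± 16.2%) on a decay transcript. Kdm5a, at 20.2 ± 0.829%, had 53.97 ± 1.35% on decay transcripts and 11.4 ± 2.54% on unfinished models. The Kdm5a decay transcripts Kdm5a-206 (45.8 ± 1.83%) and Kdm5a-204 (8.18 ± 2.10%) hold the motif as well, so their TPM is not RNA that misses it. Kdm2a, at 42.9 ± 2.47%, had 25.4 ± 5.41% on retained-intron and 16.65 ± 1.89% on decay transcripts. In Kmt2a the 521-base model Kmt2a-206 alone took 40.6 ± 1.51% of TPM and 4.02 ± 0.242% of expected counts.

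**Figure D4:**
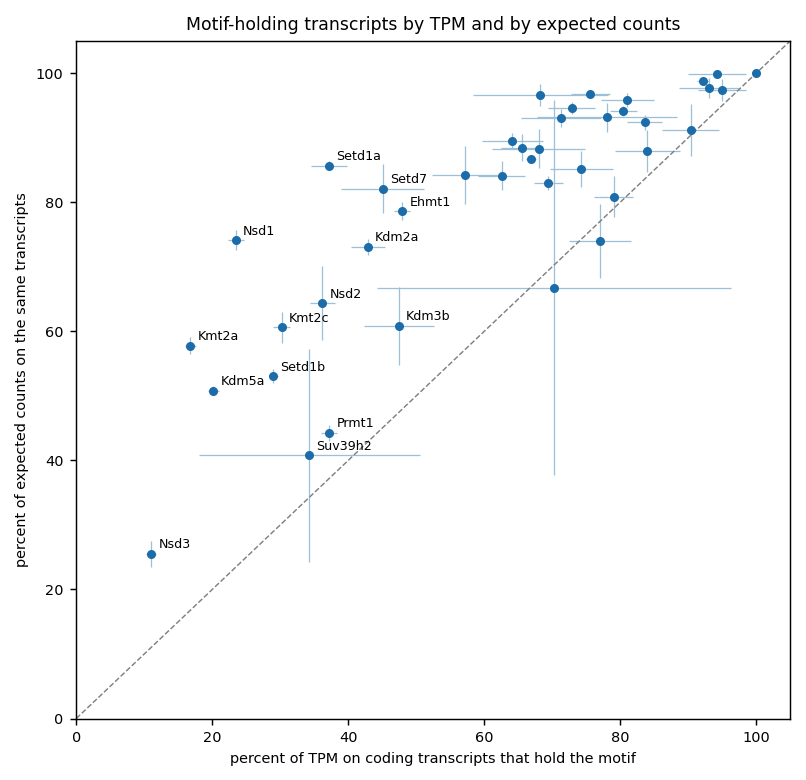
Share of TPM (horizontal axis, percent) against share of expected counts (vertical axis, percent) on motif-holding coding transcripts for the 40 members, with the SD of 3 libraries and a dashed line of equality; members under 50% of TPM are named. Most points lie above the line (37 of 40 members), and Nsd3 lies lowest on both axes at 11.0% and 25.5%.

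The PRC2 enzymes both had more than 50% of TPM on motif-holding transcripts. Ezh2 had 66.9 ± 0.734% of TPM on transcripts that hold the SET motif (86.7 ± 0.415% of expected counts) and Ezh1 80.5 ± 2.02% (94.1 ± 0.765%). In TPM these came to 34.9 ± 0.256 and 47.5 ± 2.29. The split between near-identical models was not stable: Ezh1-202 had 53.6%, 50.6% and 21.2% of the gene's TPM and Ezh1-203 had 29.1%, 28.3% and 58.6%, whereas the motif-holding sum had an SD of 2.02 percentage points. The opposing Kdm6a and Kdm6b had 57.2 ± 4.90% and 75.6 ± 2.88%. Prmt6 showed the widest spread, with 100%, 58.7% and 52.1% in the 3 libraries. Its decay transcript Prmt6-202 also holds the motif but is not typed as protein-coding, so it was not counted. It took 0%, 41.3% and 47.9% of TPM. The coding Prmt6-203, of similar length (3051 bases beside 3059), took 37.5%, 4.015% and 1.31%. The spread therefore does not show Prmt6 RNA without the motif.

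The libraries were close for most members. The median coefficient of variation of TPM was 7.17% in the members and 7.69% in all detected protein-coding genes. A chi-square test of equal shares of expected counts, with Benjamini-Hochberg adjustment over 15945 genes, called 37 of 54 members (68.5%), beside 65.8% of all genes tested and 70.7% of protein-coding genes with at least 1 TPM. Without library 2 it called 21, without library 1 30 and without library 3 27, and 21 were called in the smaller table. The test treats reads as independent. Divided by the spread shared by all genes (8.62 times counting noise), the chi-square called 0 members, with 8 at an unadjusted p under 0.05, and 295 genes in all. Kmt2a, Setdb1 and Kdm5c had the smallest adjusted p. Kdm5c was lowest in library 2, whereas Kmt2a and Setdb1 were lowest in library 3. Kmt5b was called on its expected counts (4144, 5147 and 5132) although its TPM varied by 0.559%.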

How the data were processed

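Polyadenylated RNA of 1 biosample was measured in 3 technical libraries. Reads were aligned to mm10, per the file headers and notes, with GENCODE M21 annotation for the larger tables and M4 for a smaller gene table. The deposited expected counts and TPM of the larger tables, and the whole counts of the smaller table, were used as the authors deposited them. Aligner, quantification tool and strand setting were not given in the sources used here. Rows outside the annotation held 0.125% to 0.182% of the expected counts and were left out. The smaller table held 8827129, 8758421 and 9555924 counts and matched 54 of 55 members by gene identifier.

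TPM ratios used log2(TPM + 0.1). A pair was called beyond the spread when its 3 values shared a sign and the mean exceeded 2 SD. Expected counts were rounded for a chi-square test over libraries on genes with a summed count of at least 30, with Benjamini-Hochberg adjustment at 0.05. The test was tried on simulated counts that held counting noise only. These libraries had a shared spread of 8.62 times counting noise, so the trial does not show how the test behaves on them. A single group leaves no coefficient for a count model to test, so edgeR 4.0.16 and DESeq2 1.42.0 gave alternative library sizes only. Motifs were searched in the translated longest coding transcript with Biopython 1.88 and traced by genome position into the other transcripts of the gene. The read length of 50 bases was derived from the effective length of a control row. Every member is named. Values per library are given for members that lead or close a role group or belong to a pair. They are also given for members led by a transcript not typed as protein-coding. The members, lists, pairs and motifs were chosen with earlier results of these data known.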

Additional observations from a re-analysis of the deposited data

How the results depend on the processing

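Detection held for 50 to 54 members at thresholds of 0.5 and 5 TPM, in the smaller table, on protein-coding transcripts and without each library. The count of members varying between libraries was 36 with TMM sizes, 36 with DESeq2 size factors and 35 with no filter, but 21 in the smaller table and 0 after division by the shared spread. Leaving out 1 library gave 21 to 30. The count of pairs beyond the spread was 24 on CPM, 24 with a pseudocount of 1, 19 on protein-coding transcripts and 20 of 22 in the smaller table. It was 3 of the 3 pairs that could be formed from members with no shared reads, and 23 to 24 with 1 library left out. Without length correction the log2 ratio reversed in Suz12/Eed (0.24), Kmt2d/Kmt2c (0.95) and Ezh2/Kdm6a (-0.22). In the smaller table it reversed in Suz12/Eed (0.042), Kmt2d/Kmt2c (0.77) and Ezh2/Kdm6a (-0.23). On protein-coding transcripts it reversed in Setd1a/Setd1b (1.08) and Kdm5c/Kdm5a (0.082). Members led by a transcript not typed as protein-coding numbered 3 by expected counts, and 7 to 8 with 1 library left out. Shares of expected counts for the motif-holding transcripts, and their recomputation without each library, were chosen after seeing the data; they gave 37 and 26 members. Restriction to protein-coding transcripts moved the level of 40 members by more than 1 SD. No paired analysis was possible because the 3 libraries form 1 group. Except where the construction shows it (fewer pairs that can be formed, fewer libraries, no length correction), the cause was not tested.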
